A study of Mus musculus with 6 samples.

Results

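The genes described here are those of the enkephalin and nociceptin arm of the opioid system in the female arcuate nucleus (ARC). They are the peptide precursor genes *Penk* and *Pnoc*, and the receptor genes *Oprm1* (mu), *Oprd1* (delta) and *Oprl1* (nociceptin), 5 of the 24015 gene symbols counted. *Penk* was chosen because it was higher in the mutant libraries, so its difference between genotypes is given as a description without a test. The other 4 were chosen for their function, with earlier results of these data known. All 5 passed the filter on low counts, as did 15236 genes in all.

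RNA was sequenced from ARC microdissected by hand from adult female mice on a mixed background, given as CD-1, 129P2 and C57BL/6 in the labels and as CD-1 and 129P2 in the methods. Both groups were homozygous for the floxed *Esr1* allele, which encodes estrogen receptor alpha (ERα). The 3 controls were Esr1fl/fl without Cre. The 3 mutants were Esr1fl/fl;Nkx2-1-Cre, called Esr1Nkx2-1Cre here. The females were 11 to 20 weeks old by the methods and 15 weeks old by a figure legend. Cre driven by *Nkx2-1* acts across the medial basal hypothalamus, so ERα was lost from the ventromedial hypothalamus (VMH) as well as from the ARC and was not removed from 1 neuron type alone. Controls carried no Cre, so Cre itself and the loss of ERα cannot be told apart.

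Opioid peptides are cut from larger precursors and stored in dense-core vesicles. Enkephalins, from *Penk*, act mainly at delta and mu receptors, and nociceptin, from *Pnoc*, acts at its own receptor and not at the classical opioid receptors. Dynorphins, from *Pdyn*, act mainly at the kappa receptor, and beta-endorphin, from *Pomc*, at mu and delta receptors. All of these receptors couple to inhibitory G proteins of the Gi and Go families, which lower cyclic AMP, open inwardly rectifying potassium channels and close presynaptic calcium channels. In the ARC, opioid peptides are known for restraining gonadotropin-releasing hormone secretion and for their part in feeding and in prolactin release.

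Libraries held between 11792440 and 17877137 counts on genes, so that 3 counts stood for 0.175 to 0.248 CPM, the count scaled by library size after TMM normalization. Mutant replicate 1 was the shallowest. *Esr1* was at 48.5 to 64.5 CPM in controls and at 7.06 to 11.8 CPM in mutants, which matches the labels. Summed markers of ARC neurons (8 genes, *Cartpt*, *Npy* and *Tac2* highest) were present in every library, at 653 to 695 CPM in controls and 757 to 1160 CPM in mutants. Of these 8 genes, 3 were higher in every mutant, against 7.88% of all genes tested, and 0 passed the adjusted threshold. Their log2 fold changes were uneven, from 0.02 to 2.16. Those higher in every mutant were *Cartpt*, *Kiss1* and *Tac2*. The paper counts *Kiss1* and *Tac2* among the genes changed in this mutant, so the sum does not measure ARC tissue alone. Pan-neuronal markers stood at 4342 to 5541 CPM in controls and 4505 to 6110 CPM in mutants. Summed VMH markers varied among dissections within both genotypes, at 89.3, 205 and 144 CPM in controls and 109, 250 and 312 CPM in mutants, lowest in replicate 1 of each. Of these 5 genes, 4 had positive log2 fold changes. The fifth, *Tac1*, was at 50.9, 60.0 and 40.1 CPM in controls and 37.0, 28.1 and 38.6 CPM in mutants, and was not lowest in replicate 1 of either. Oligodendrocyte markers separated the genotypes, at 697 to 1305 against 1720 to 1839 CPM, with 10 of 10 genes higher in every mutant and 1 of them, *Cldn11*, past the adjusted threshold, against 7.88% and 0.0591% of all genes tested. Microglial markers did so too (132 to 147 against 170 to 181 CPM, with 0 of 5 genes past the threshold and 2 of 5 higher at an unadjusted p under 0.05 in edgeR, against 4.84% of all genes). GABAergic markers (1432 to 1727 against 1290 to 1614 CPM), astrocyte markers (1131 to 1517 against 1241 to 1572 CPM) and meningeal fibroblast markers (179 to 376 against 200.3 to 515 CPM) overlapped between genotypes. Pituitary markers were at 453 to 746 CPM in 5 libraries and at 5.82 CPM in control replicate 2. These were bulk samples, in which fewer cells of a type and less RNA per cell cannot be told apart.

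*Penk*, the enkephalin precursor, was the member that differed most, 2.76-fold higher in the mutants. Its level was 134, 169 and 147 CPM in control replicates 1, 2 and 3 and 503, 350 and 388 CPM in the mutants. The lowest mutant value was 2.06 times the highest control value, and the groups did not overlap. Control females averaged 150 ± 17.8 CPM (SD, n = 3) and mutant females 414 ± 79.8 CPM, which is a log2 fold change of 1.46 (standard error, SE, 0.14). Over all genes tested, 0.0591% were called higher in mutants at an adjusted p-value under 0.05, and 7.88% had every mutant above every control. *Penk* was chosen on this contrast, so its difference may be overstated, and nothing is read from its place among them.

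The mutants differed among themselves more, in CPM, than the controls did. Mutant replicate 1, with the highest *Penk* level, was also the library with the lowest *Oprm1*, *Oprd1* and *Oprl1* levels. Leaving out each library in turn gave *Penk* log2 fold changes from 1.30 to 1.57. Without both replicate 1 libraries, where the VMH markers were lowest, the value was 1.22. Summed ARC, oligodendrocyte and microglial markers were also higher in all 3 mutants than in all 3 controls, and their part in the *Penk* difference was not tested. *Penk* is also abundant in striatal neurons. The full striatal marker list is not reported here, and the part of striatal tissue in the *Penk* difference was not tested.

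In NCBIM37, *Penk* occupies 4060678 to 4065966 of chromosome 4 (minus strand). Of its exon bases, 233 (14.3%) are shared with *A830012C17Rik*, a long intergenic noncoding RNA annotated on the opposite strand. That symbol was not among the 24015 counted. Whether counting used strand is not given in the sources used here, so the *Penk* counts may hold reads of that RNA from the shared bases.

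*Pnoc*, the precursor of nociceptin, was lower in every mutant, the opposite direction to *Penk*. It was at 14.1, 12.8 and 11.3 CPM in controls and at 9.49, 6.85 and 9.19 CPM in mutants. No mutant reached the lowest control. Means were 12.7 ± 1.41 and 8.51 ± 1.45 CPM (SD, n = 3), 1.49-fold lower in mutants. The log2 fold change was -0.58 (SE 0.17, approximate 95% interval -0.97 to -0.20). Its p-value was under 0.05 before adjustment over all genes and did not pass after it (adjusted p = 0.316, from the quasi-likelihood test of edgeR used throughout). *Pnoc* occupies 66019510 to 66044046 of chromosome 14 (minus strand). Its log2 fold change stayed between -0.67 and -0.45 when each library was left out in turn. The GABAergic markers, *Gad1*, *Gad2* and *Slc32a1*, also had negative log2 fold changes in 3 of 3 genes, as did 7473 of the 15236 genes tested. Their median was -0.24, and 1 of them was lower in every mutant, against 7.88% of all genes. At an unadjusted p-value under 0.05 in edgeR, 2 of the 3 were lower, against 4.01% of all genes, and 0 passed after adjustment. The summed levels of these markers overlapped, and their part in the *Pnoc* difference was not tested.

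**Figure D1:**
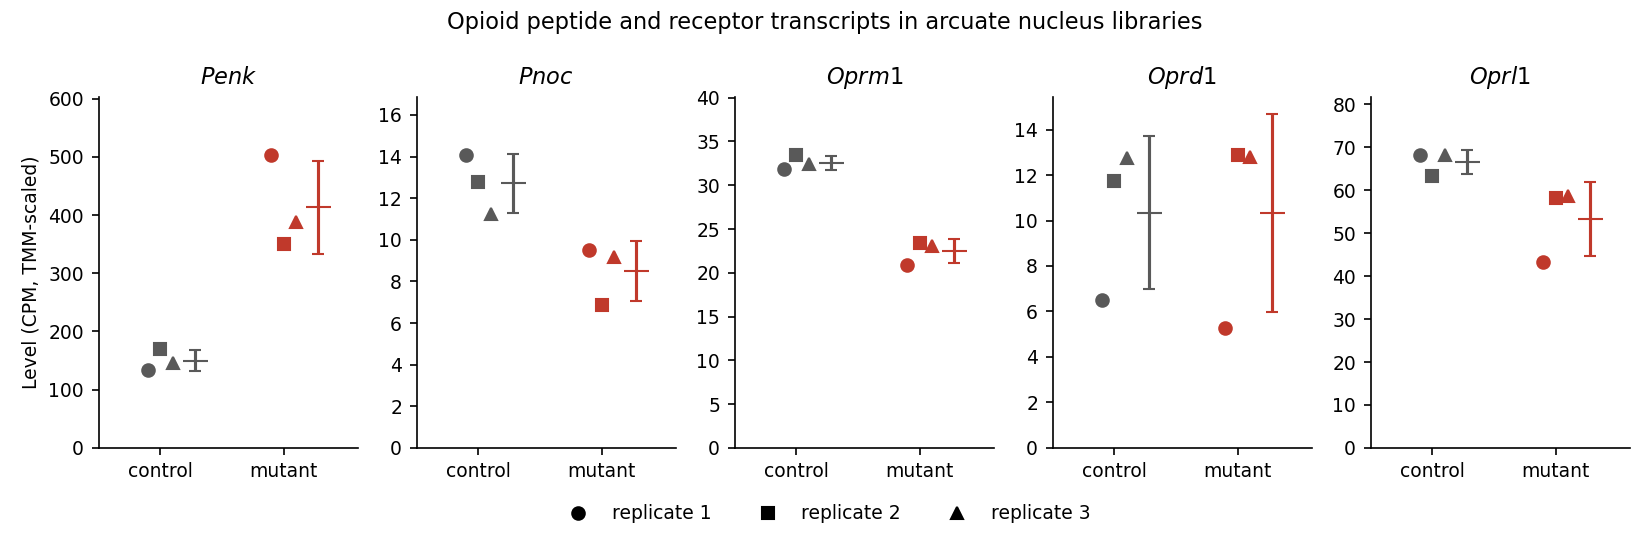
Level of each member in CPM (TMM-scaled, each panel with its own axis from 0) in the 3 control and 3 mutant libraries, 1 point a library with its shape marking the replicate, with the mean and SD of each group. *Penk* was higher in all 3 mutants, *Pnoc*, *Oprm1* and *Oprl1* were lower in all 3, and *Oprd1* overlapped.

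Set against each other within a library, the precursors differed more than either did alone. The ratio of *Penk* to *Pnoc* counts was 9.55, 13.2 and 13.0 in controls and 53.0, 51.1 and 42.2 in mutants. *Penk* was chosen for its rise and *Pnoc* was lower, so a larger difference in the ratio was fixed in advance. The ratio is given as a description.

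The mu receptor gene *Oprm1* was the receptor with the tightest values and was lower in the mutants. It was at 31.9, 33.4 and 32.4 CPM in controls and at 20.9, 23.4 and 23.1 CPM in mutants. The controls spanned a narrow range that no mutant approached. Means were 32.6 ± 0.790 and 22.5 ± 1.40 CPM (SD, n = 3), 1.45-fold lower in mutants. The log2 fold change of -0.53 (SE 0.10, 95% interval -0.76 to -0.31) did not pass the adjusted threshold (edgeR adjusted p = 0.0736). It passed in DESeq2 (log2 fold change -0.54, adjusted p = 0.00871) and with every gene of at least 1 count kept in the edgeR fit (-0.55, adjusted p = 0.0339), and not in limma voom (-0.53, adjusted p = 0.0818). The call therefore depended on the test and on the filter, while the size of the difference hardly moved, at -0.57 to -0.49 with each library left out in turn.

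*Oprm1* occupies 3308332 to 3588035 of chromosome 10 in NCBIM37 (minus strand), where 35 transcripts with 8156 merged exon bases are annotated. It shares 96 exon bases (1.18%) with *Ipcef1* on the opposite strand. *Ipcef1* had a log2 fold change of 0.29 (edgeR adjusted p = 0.596), opposite in sign to that of *Oprm1*.

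The nociceptin receptor gene *Oprl1* was lower in every mutant as well, by less. It was at 68.2, 63.3 and 68.2 CPM in controls and at 43.4, 58.1 and 58.6 CPM in mutants. Mutant replicate 1 lay far under the other mutants, and no mutant reached the lowest control. Means were 66.6 ± 2.84 and 53.4 ± 8.65 CPM (SD, n = 3), 1.25-fold lower in mutants, with a log2 fold change of -0.32 (SE 0.12, 95% interval -0.58 to -0.05, edgeR adjusted p = 0.461). Without mutant replicate 1 the log2 fold change was -0.19 (adjusted p = 0.634). *Oprl1* occupies 181449721 to 181455690 of chromosome 2 (plus strand). The ratio of *Pnoc* to *Oprl1* counts overlapped between genotypes, at 0.206, 0.202 and 0.165 in controls and 0.219, 0.118 and 0.157 in mutants.

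The delta receptor gene *Oprd1* gave no difference that could be resolved. It was at 6.50, 11.8 and 12.8 CPM in controls and at 5.28, 12.9 and 12.8 CPM in mutants. The spread lay within the genotypes and not between them, since replicate 1 was the lowest library of each. Means were 10.3 ± 3.36 and 10.3 ± 4.36 CPM (SD, n = 3). The log2 fold change was 0.0072 (SE 0.38, edgeR adjusted p = 0.9998), with a 95% interval of -0.88 to 0.90. In this fit of all 6 libraries, a change of the size of that in *Oprm1* in either direction was within the interval. The same replicate 1 libraries had the lowest summed VMH markers, and the part of the dissection in the *Oprd1* spread was not tested. Without these 2 libraries, an alternative chosen after seeing the data, the log2 fold change was 0.067 with a smaller SE of 0.17. *Oprd1* occupies 131666641 to 131700401 of chromosome 4 (minus strand).

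Of the 4 members chosen by function, 3 had genotypes that did not overlap, all with every mutant lower. Over all genes tested, 15.8% did not overlap in either direction and 7.88% had every mutant lower. The same 3 had unadjusted p-values under 0.05 in edgeR, against 8.85% of all genes, or 4.01% counting genes lower in mutants. At an adjusted p-value under 0.05, edgeR called 0 of the 4, limma voom 0 and DESeq2 1 (*Oprm1*). The shares over all genes were 0.118% in edgeR, 0.131% in limma voom and 1.27% in DESeq2, which called 191 genes where edgeR called 18. The 4 were chosen with earlier results of these data known, so their counts beside these shares are a description. The median log2 fold change of all genes tested was 0.0036. An exact two-sided permutation test of 1 gene with 3 libraries against 3 cannot give a p-value under 0.1.

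The promoter table of RefSeq (GRCm38.p6) matched 3 of the 5 members, the receptor genes, and not *Penk* or *Pnoc*. One window for each receptor gene is shown, the 250 bases before an annotated start, because these genes share a G protein pathway but differ in base composition. Where a gene had several windows, the one with the most CpG dinucleotides is shown. CpG dinucleotides are in capitals. The windows are *Oprm1* at chr10:6788320-6788569 on the plus strand, *Oprd1* at chr4:132144487-132144736 on the minus strand and *Oprl1* at chr2:181714766-181715015 on the plus strand, each written 5′ to 3′ along its gene. These coordinates belong to GRCm38.p6 and are not those of NCBIM37, in which *Oprm1* is annotated on the other strand.
Oprm1: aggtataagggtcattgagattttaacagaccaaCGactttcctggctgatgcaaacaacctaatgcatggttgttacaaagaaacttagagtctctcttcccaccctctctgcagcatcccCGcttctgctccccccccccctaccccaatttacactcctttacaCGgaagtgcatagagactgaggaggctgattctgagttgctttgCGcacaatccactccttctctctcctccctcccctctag
Oprd1: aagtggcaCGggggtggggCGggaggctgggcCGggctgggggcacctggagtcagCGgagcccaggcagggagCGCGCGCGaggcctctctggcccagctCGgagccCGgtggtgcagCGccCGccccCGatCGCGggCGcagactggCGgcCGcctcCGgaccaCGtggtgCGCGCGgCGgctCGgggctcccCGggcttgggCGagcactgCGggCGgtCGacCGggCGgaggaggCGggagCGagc
Oprl1: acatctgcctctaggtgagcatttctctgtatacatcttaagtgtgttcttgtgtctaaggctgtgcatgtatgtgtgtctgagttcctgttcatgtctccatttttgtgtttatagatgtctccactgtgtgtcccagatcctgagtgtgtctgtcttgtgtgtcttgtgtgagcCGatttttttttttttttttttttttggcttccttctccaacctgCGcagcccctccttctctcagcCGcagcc

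The delta receptor window stood apart, with 34 CpG dinucleotides and 80.0% G and C. The mu receptor window had 4 and 50.0%, and the nociceptin receptor window 3 and 44.4%. Windows not shown had 0 and 45.6% and 4 and 50.8% for *Oprm1*, and 1 and 54.8% and 2 and 48.8% for *Oprl1*. Medians over 32851 windows of 27025 genes were 6 CpG dinucleotides and 52.4%. Motifs known from estrogen, cyclic AMP and activity responses were searched on both strands of all 7 windows of the receptor genes. They were the full palindromic estrogen response element (in 0.0639% of all windows), the cyclic AMP response element TGACGTCA (1.55%), TGCGTCA (1.75%), known as an element of the enkephalin promoter, and the AP-1 site TGANTCA (6.75%). TGCGTCA was also read as TGACGCA, the others read alike on both strands, and none contains another. None of these letters was found in the 7 windows.

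Levels of different genes were compared per kilobase of merged exons. In controls the order was *Pomc* (172 CPM per kb), *Penk* (91.9), *Pdyn* (18.9), *Oprl1* (17.7), *Oprk1* (13.0), *Pnoc* (6.71), *Oprm1* (4.0) and *Oprd1* (2.57). Of neighbours in that order, *Pdyn* and *Oprl1* had overlapping ranges and the others did not. In mutants *Penk* came first (253 CPM per kb), with a range that overlapped that of *Pomc* (224), followed by *Pdyn* (38.6), *Oprl1* (14.2), *Oprk1* (10.3), *Pnoc* (4.49), *Oprm1* (2.76) and *Oprd1* (2.57). There, *Oprl1* and *Oprk1* overlapped, as did *Oprm1* and *Oprd1*. Of the receptor transcripts in controls, that of the nociceptin receptor was highest per length, but with the longest transcript of each gene its range overlapped that of *Oprk1*. The precursor of its ligand was the lowest of the precursors. The place of *Oprm1* also rests on its length, since with the longest transcript (2749 bases) its level was 11.9 in controls and 8.18 in mutants, above *Pnoc*.

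**Figure D2:**
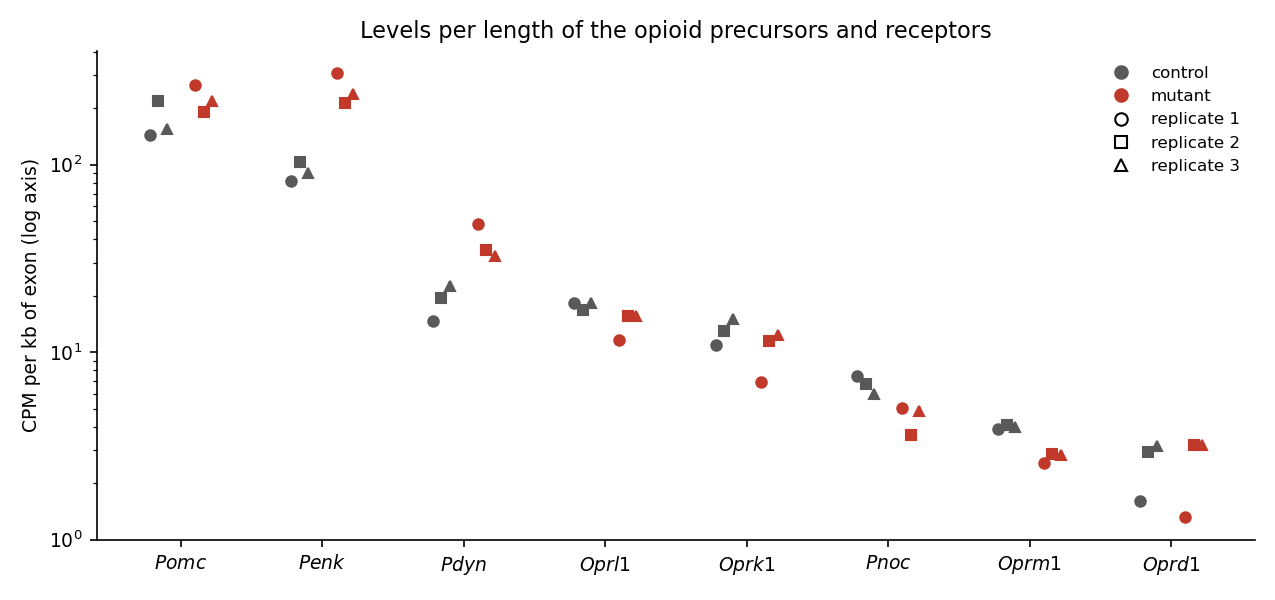
Level in CPM per kb of merged exon (log axis) of the opioid precursor and receptor genes in each control (grey) and mutant (red) library, 1 point a library with its shape marking the replicate. *Penk* lies below *Pomc* in all 3 controls and overlaps with it in mutants, and *Pnoc*, *Oprm1* and *Oprd1* are lowest in both.

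On the same per-length scale, *Penk* made up 31.9% ± 1.89 (SD, n = 3) of the 4 opioid precursor transcripts in controls and 48.6% ± 0.531 in mutants. *Pomc* made up 59.1% ± 3.18 in controls and 43.1% ± 0.936 in mutants. *Pnoc* was the smallest share in both, at 2.37% ± 0.550 and 0.867% ± 0.103. The receptor shares differed between genotypes by less than the larger SD. *Oprl1* took 47.8% ± 4.11 in controls and 48.1% ± 3.08 in mutants, *Oprk1* 34.6% ± 2.90 and 34.1% ± 2.75, *Oprm1* 10.8% ± 0.798 and 9.49% ± 1.70, and *Oprd1* 6.83% ± 1.87 and 8.30% ± 2.12. The precursor shares include *Penk*, which was chosen for its rise, and were not tested. A higher share of *Penk* lowers the shares of the others together by construction. The mean level of *Pomc* itself was not lower, at 172 CPM per kb in controls and 224 in mutants.

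**Figure D3:**
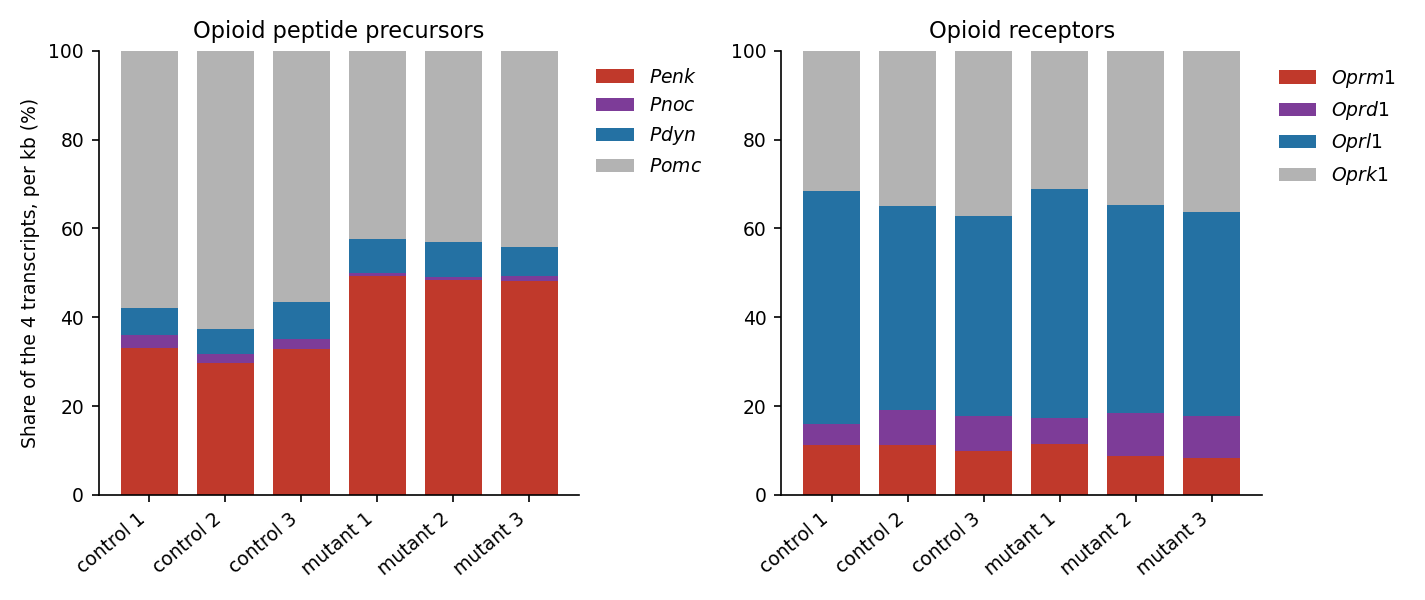
Share in percent of each precursor among the 4 opioid precursor transcripts and of each receptor among the 4 receptor transcripts, per kb of merged exon, as stacked bars for each library. In all 3 mutants *Penk*, chosen for its rise, takes the largest share of the precursors in place of *Pomc*. The mean level of *Pomc* itself was not lower in mutants. The receptor bars differ little between genotypes.

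The remaining opioid genes were *Pdyn*, *Pomc*, *Oprk1*, *Ogfr* and *Ackr3*. *Pdyn*, the dynorphin precursor, was at 42.3, 56.4 and 64.6 CPM in controls and 139, 101 and 94.3 CPM in mutants. Every mutant lay above every control, as for *Penk*. The log2 fold change of *Pdyn*, 1.03 (SE 0.19), did not pass the adjusted threshold in edgeR (adjusted p = 0.114) and passed in DESeq2 (adjusted p = 3.91e-06). The paper counts *Pdyn* among its changed genes and also reports it higher in mutants by quantitative PCR. The ratio of *Penk* to *Pdyn* counts was 3.17, 3.01 and 2.27 in controls and 3.62, 3.45 and 4.12 in mutants. This was a far smaller difference than that of *Penk* to *Oprm1*, at 4.21, 5.06 and 4.52 against 24.1, 14.9 and 16.8. The contrast follows from *Pdyn* being higher and *Oprm1* lower in the mutants. *Pomc*, the precursor of beta-endorphin and melanocortins, overlapped between genotypes (log2 fold change 0.38, SE 0.18, edgeR adjusted p = 0.597).

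The kappa receptor gene *Oprk1* was at 74.6, 88.2 and 103 CPM in controls and 47.5, 78.6 and 84.7 CPM in mutants, overlapping, with replicate 1 lowest in each genotype (log2 fold change -0.33, SE 0.23, edgeR adjusted p = 0.743). *Ogfr*, a nuclear-envelope receptor for met-enkephalin outside the G protein-coupled family, was higher in every mutant at a low level, at 2.81 to 3.87 CPM in controls and 4.40 to 6.60 CPM in mutants (log2 fold change 0.59, SE 0.24, edgeR adjusted p = 0.510). *Ackr3*, an atypical chemokine receptor that also binds opioid peptides, overlapped (log2 fold change -0.10, edgeR adjusted p = 0.957). Over these 5 genes the median log2 fold change was 0.38, with 0 called by edgeR and 2, *Pdyn* and *Ogfr*, higher at an unadjusted p-value under 0.05, against 4.84% of all genes. The median ranged from 0.24 (without mutant replicate 1) to 0.59 (without control replicate 2) with 1 library left out.

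**Figure D4:**
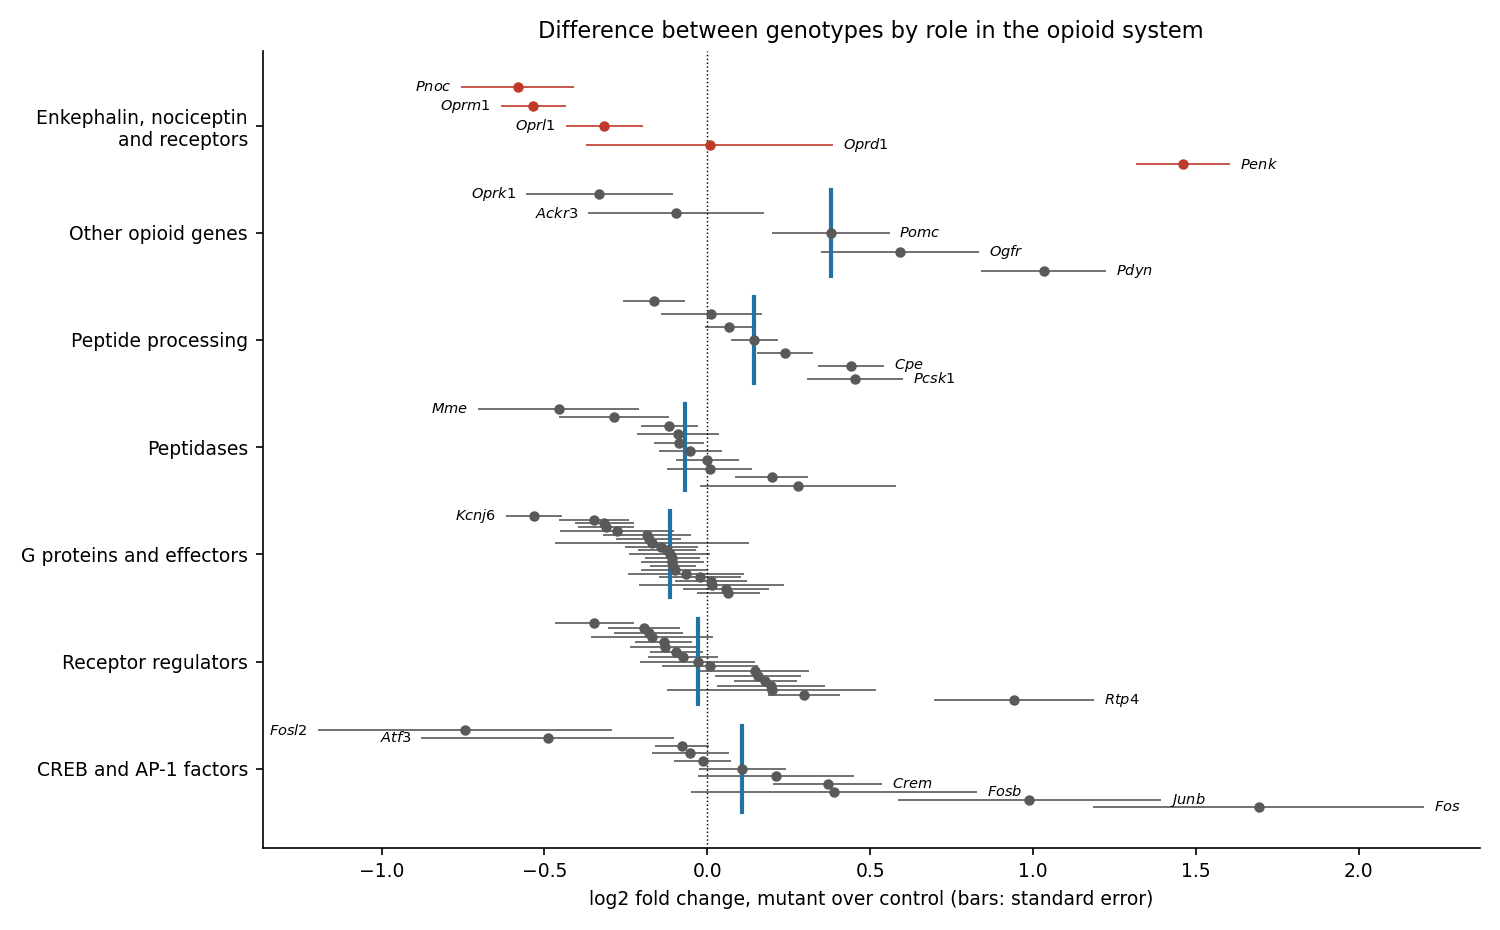
Log2 fold change of mutant over control, with standard errors, for the 5 members (red) and the genes of 6 lists by role in the opioid system (grey), with the median of each list as a blue bar and names at the members, the other opioid genes and the genes farthest from 0. *Penk* and *Pdyn* lie to the right of 0, and *Pnoc*, *Oprm1* and *Oprl1* to the left. Of the G protein and effector list, 17 of 21 genes lie to the left, as do 7473 of the 15236 genes tested.

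Of the 7 genes that cut and finish peptide precursors, 6 had positive log2 fold changes, as 7763 of the 15236 genes tested did. Their median was 0.14, and 4 had every mutant above every control, as 7.88% of all genes did. None was called by edgeR after adjustment, 3 had unadjusted p-values under 0.05 and higher levels in mutants, as 4.84% of all genes did, and DESeq2 called 1, *Cpe*. *Cpe*, the carboxypeptidase that trims the basic residues left by convertases, was the most abundant. It was at 1171, 970 and 922 CPM in controls and 1380, 1372 and 1411 CPM in mutants (log2 fold change 0.44, SE 0.10, adjusted p = 0.163 with edgeR and 0.00691 with DESeq2). *Scg5*, the chaperone of prohormone convertase 2, had a log2 fold change of 0.24 (edgeR adjusted p = 0.438) with every mutant above every control. *Pcsk1n*, an inhibitor of prohormone convertase 1, had -0.16 (edgeR adjusted p = 0.669).

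No gene of the list of peptidases that degrade enkephalins and other small peptides separated the genotypes. Of 10 tested, 0 were called by edgeR, against 0.118% of all genes, and 0 had an unadjusted p-value under 0.05, against 8.85%. All 10 overlapped between genotypes, where 15.8% of all genes did not. In a list of 10 genes, counts of 0 lie near these shares. The median log2 fold change was -0.07. The most abundant were *Ece1*, an endothelin-converting enzyme, with a log2 fold change of 0.00 (SE 0.10), *Lnpep*, with -0.09 (SE 0.08), and *Npepps*, a cytosolic aminopeptidase, with -0.05 (SE 0.10). *Mme*, or neprilysin, the enzyme best known for cutting enkephalin, was at 9.19 to 19.5 CPM in controls and 10.2 to 11.4 CPM in mutants. *Mme* was named after its values were seen.

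Among the G proteins and effectors that opioid receptors act through, 17 of 21 genes had negative log2 fold changes, as did 7473 of the 15236 genes tested. The median of the 21 was -0.12 (-0.073 without mutant replicate 1). None was called by edgeR after adjustment, 4 had unadjusted p-values under 0.05 and were lower in mutants, and 5 had every mutant below every control, against 4.01% and 7.88% of all genes. *Kcnj6*, which encodes the potassium channel subunit GIRK2, came nearest to the threshold and was named after its values were seen. It was at 50.3, 54.0 and 52.9 CPM in controls and 36.5, 35.9 and 36.4 CPM in mutants, a gap several times the spread within either genotype. Its log2 fold change of -0.53 (SE 0.09) equalled that of *Oprm1* to 2 decimals (adjusted p = 0.0567 with edgeR, 0.000699 with DESeq2 and 0.0112 with every gene of at least 1 count kept in the edgeR fit). The most abundant genes of the list were *Gnao1*, the alpha subunit of Go (log2 fold change -0.11, edgeR adjusted p = 0.813), *Gnai1* of Gi (-0.35, SE 0.11, edgeR adjusted p = 0.337, every mutant lower) and *Gnb1* (-0.11, edgeR adjusted p = 0.780). *Gnaz* and *Cacna1a*, the latter encoding the pore of the P/Q-type calcium channel, had log2 fold changes of -0.31 and -0.32 with every mutant lower, and were also named after their values were seen.

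Genes that regulate receptor signalling and traffic went both ways, with 8 of 17 positive and a median log2 fold change of -0.03. None was called by edgeR after adjustment, and at an unadjusted p-value under 0.05 there were 2 higher and 1 lower, against 4.84% and 4.01% of all genes. *Gprasp1*, which sorts internalised receptors to lysosomes, was the most abundant (log2 fold change -0.13, edgeR adjusted p = 0.713). *Rgs17* and *Rgs4* speed the return of G proteins to rest and had log2 fold changes of -0.10 (edgeR adjusted p = 0.796) and 0.30 (edgeR adjusted p = 0.453). *Rtp4*, a chaperone that carries mu and delta receptors to the cell surface and is also induced by interferon, was at 5.18 to 8.11 CPM in controls and 8.99 to 16.2 CPM in mutants. It was called by DESeq2 (adjusted p = 0.0447) and not by edgeR (log2 fold change 0.94, SE 0.25, adjusted p = 0.249), and was named for that call. *Rgs19*, another regulator of Gi alpha subunits and the gene lower at that level, had -0.35 (edgeR adjusted p = 0.415).

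Transcription factors of the CREB and AP-1 families act on the enkephalin and dynorphin promoters in many neurons. Of 11 tested, 0 were called by edgeR, 2 were higher at an unadjusted p-value under 0.05, and 3 had every mutant above every control, against 4.84% and 7.88% of all genes. The median log2 fold change was 0.11, and it was -0.022 without control replicate 2 and 0.22 without mutant replicate 3. The most abundant, *Atf2*, *Creb1* and *Jun*, overlapped between genotypes, with log2 fold changes of -0.08, -0.01 and -0.05. The genes past the unadjusted level were *Fos* and *Junb*, named for it. *Fos* was at 13.0, 4.42 and 6.81 CPM in controls and 16.7, 22.0 and 39.2 CPM in mutants (log2 fold change 1.69, SE 0.51, edgeR adjusted p = 0.418). *Fos* was highest in mutant replicate 3 and *Penk* in mutant replicate 1, and the part of *Fos* in the *Penk* difference was not tested. Over the 71 genes of the 6 lists, DESeq2 called 4, *Pdyn*, *Cpe*, *Kcnj6* and *Rtp4*, against 1.27% of all genes, limma voom 0 and edgeR 0.

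The genes whose pattern over the 6 libraries was most like that of *Penk* were found by the root mean square difference in log2 CPM, each gene centred on its own mean. They were *Cyp2j12* (0.122), *Dio3* (0.172), *Cd48* (0.182), *Thbs4* (0.190) and *Grp* (0.211). The first 4 were under 2 CPM in every library, so their likeness rests on 3 to 22 counts a library, and *Grp*, the gastrin-releasing peptide precursor, was at 1.47 to 2.62 CPM in controls and 3.73 to 6.60 CPM in mutants. For *Pnoc* they were *Doc2g* (0.0782), *Siah3* (0.0875), *Brs3* (0.0958), *Prlr* (0.103) and *Ngfr* (0.110). Of these, the prolactin receptor gene *Prlr* was by far the most abundant, at 376 to 444 CPM in controls and 241 to 294 CPM in mutants, and *Brs3*, an orphan receptor of the bombesin family, was near the level of *Pnoc* itself, at 10.4 to 12.1 and 6.60 to 8.19 CPM. Being picked for likeness, they share the direction of their member by choice.

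**Figure D5:**
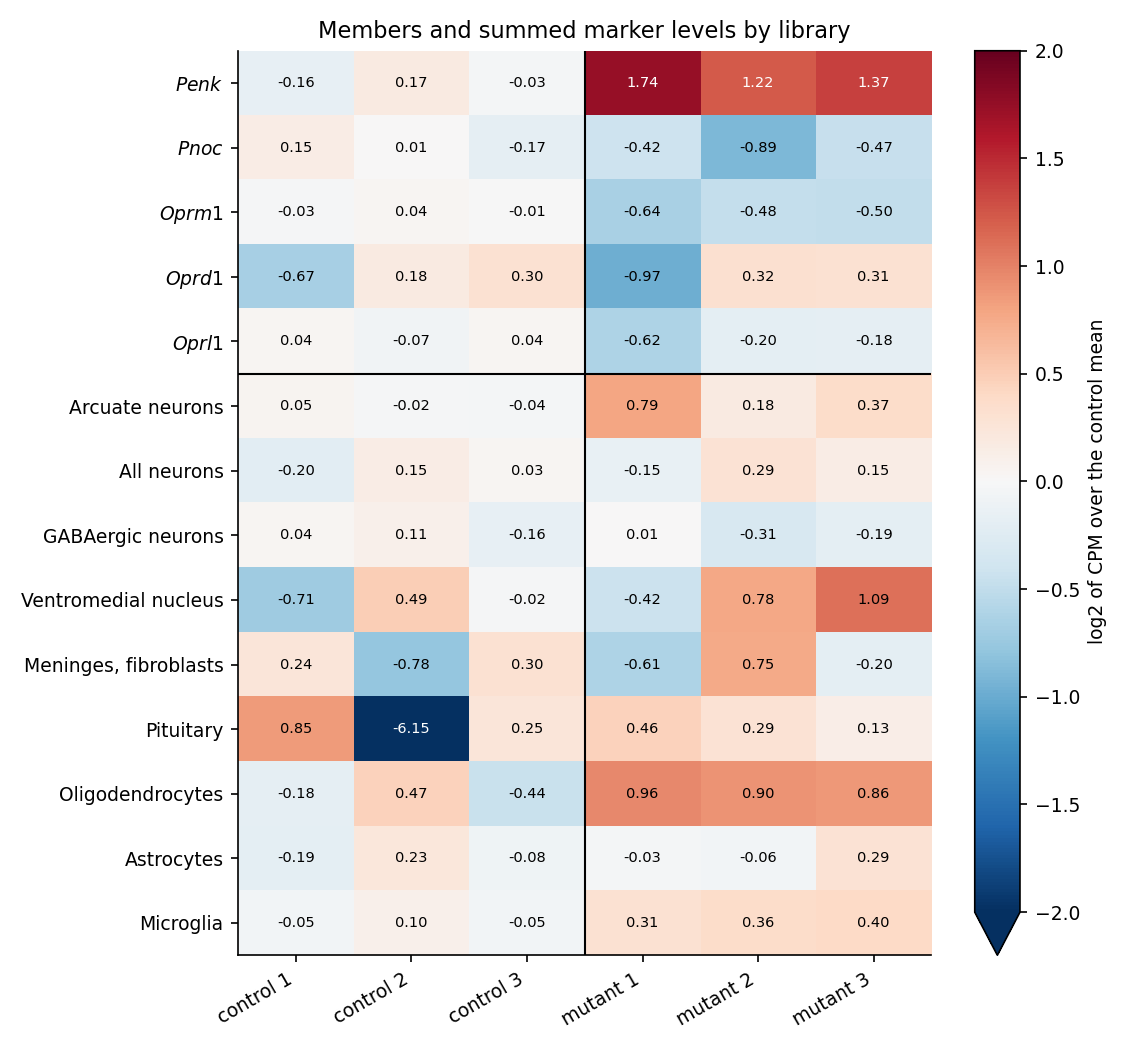
Colour map of log2 CPM over the control mean for the 5 members and 9 summed marker lists (rows) in each of the 6 libraries (columns), with the colour scale cut at its low end for the pituitary markers of control replicate 2. Mutant replicate 1 has the highest *Penk* and the lowest *Oprm1*, *Oprd1* and *Oprl1*, and oligodendrocyte markers are high in all 3 mutants.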

How the data were processed

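RNA was prepared from ARC of 3 control and 3 mutant females and amplified with the Nugen Ovation RNA-Seq System V2. The authors mapped single-end reads of 50 bases with TopHat2 (2.1.0) and deposited raw HTSeq (0.6) counts per gene symbol, without normalization. The submitters' processing notes name mm9, the methods join names of different assemblies, and strand and overlap settings of the counting are not given in the sources used here. The labels do not say whether each sample is 1 animal, so p-values measure only the spread between these 6 samples, which may be technical.

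Counts were fitted here for all genes with edgeR 4.0.16 (quasi-likelihood test with robust dispersions, TMM, filterByExpr) in R 4.3.3, mutant against control without covariates, with Benjamini-Hochberg adjustment over 15236 genes and a threshold of 0.05. DESeq2 1.42.0 (the authors used 1.14.1) and limma voom 3.58.1 were alternatives. Other alternatives were RLE normalization, other filters, a replicate block, each library left out and CPM without TMM. Fits were tested on simulated counts. Positions and exon lengths are from GENCODE for NCBIM37, matched by symbol. Log2 CPM for likeness used a prior count of 2.

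Members, the 6 pathway lists and the 10 marker lists were chosen with earlier results of these data known. The summed level of 1 marker list is not reported here. Named genes are the members, all other opioid genes, the 3 most abundant genes of each further pathway list and any called, and the 5 genes most like *Penk* and *Pnoc*, unless said otherwise. Reads carry no molecular identifiers, so floors cover counting error only. Samples of a number in both genotypes did not all deviate together, with correlations over genes of 0.28, 0.047 and -0.0026, so the numbers were not treated as pairs.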

Additional observations from a re-analysis of the deposited data

How the results depend on the processing

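The log2 fold changes of *Pnoc* and *Oprl1* kept their sign and missed the adjusted threshold under all alternatives, at -0.67 to -0.45 and -0.39 to -0.19 with 1 library left out. That of *Oprm1* was -0.57 to -0.49 there and passed in DESeq2 (-0.54), under a filter of 1 count in any library (-0.55) and with the replicate block (-0.54, adjusted p = 0.0473). *Penk* was at 1.30 to 1.57 with 1 library left out and at 1.22 without both replicate 1 libraries, an alternative chosen after seeing the data. *Oprd1* has no fixed sign, at -0.0045 in DESeq2, -0.0037 in limma voom, -0.0023 under the 1-count filter and -0.037 (SE 0.16) with the replicate block. With 1 library left out it ran from -0.24 to 0.31. It was -0.24 without control replicate 1, -0.18 without mutant replicate 2 and -0.17 without mutant replicate 3.

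Over all genes, edgeR called 18 (9 higher, 9 lower), DESeq2 191 (97 and 94), the 1-count filter 106 (49 and 57), the replicate block 123 (69 and 54), and the fit without both replicate 1 libraries 21 (14 and 7). With 1 library left out it was 7 to 46 (2 to 26 higher, 5 to 20 lower). Of the pathway genes, DESeq2 called 4, the 1-count filter 1 and the replicate block 2, *Cpe* and *Kcnj6*, with 0 in each fit that left out 1 library. Not every sample correlated best with its own number, and the block changed no call on *Pnoc*, *Oprl1* or *Oprd1*. The list median moved for the other opioid genes, 0.24 to 0.59 with 1 library left out and 0.13 without both replicate 1 libraries, and for the processing genes, 0.13 to 0.17 and 0.12. With 1 library left out, the medians ran from -0.022 to 0.22 for the CREB and AP-1 factors, -0.16 to -0.073 for the G proteins and effectors, -0.091 to -0.038 for the peptidases and -0.053 to -0.0041 for the regulators. With longest transcripts in place of merged exons, 6 of 8 genes kept their place. The cause of these differences was not tested. All members were above the 3-count floor in every library, and *Oprd1* was limited by its spread between libraries.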
